A study of Mus musculus with 6 samples.

Results

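H3K27me3, the trimethylation of histone H3 at lysine 27, was profiled by ChIP-seq in the distal forelimb (DFL, the digit-forming end of the limb bud) and in the proximal forelimb (PFL, the part that forms the upper and lower arm) of wild type mouse embryos at E12.5. The strain label is B6CBAF1 for both. Each piece has 1 H3K27me3 library, made from a pool of tissue and reanalysed from an earlier experiment, so there is no replicate check and no test between the pieces. The members are the peak regions of these 2 libraries on chromosomes 1 to 19 and X, with lines of the same interval collapsed to 1 region. This gave 9083 regions in DFL and 13873 in PFL, together 22956 of the 379158 regions in the 8 peak lists of the series. The other lists hold H3K27ac and CTCF of the same pieces, and HOX13 binding. The HOX13 lists come from whole forelimb of an earlier day than E12.5 and belong to no sample of the series. A region was called shared when at least 1 bp of it overlapped a region of the other piece. The intervals below are 95% Wilson intervals over regions or genes. They cover counting error only, not the spread between animals.

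H3K27me3 is deposited by the Polycomb repressive complex PRC2 and is known for covering the promoters of developmental regulators in cells where these genes are silent or held ready. In vertebrates the mark is concentrated at CpG-rich sequence, and it can spread widely at gene clusters such as Hox. In the limb bud, the posterior Hoxd genes are known to be active in digit cells, and genes of the middle of the cluster in the future forearm.

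The stretches of 300 bases that follow show what such regions look like. They are read from the RefSeq GRCm38.p6 genome, which is the mm10 build of the files, on the plus strand, within 150 bases of a region's summit, with CpG pairs in capitals. The first is the region found in DFL alone with the highest −log10 q near a start, at Arhgap8, and the second is the strongest PFL region between Evx2 and Hoxd12. The last 3, at Jag1 and Msx2 (PFL) and Sall1 (DFL), were chosen after their values were seen because the limb genes below turn on them.
Arhgap8, DFL alone, chr15:84720213-84720512: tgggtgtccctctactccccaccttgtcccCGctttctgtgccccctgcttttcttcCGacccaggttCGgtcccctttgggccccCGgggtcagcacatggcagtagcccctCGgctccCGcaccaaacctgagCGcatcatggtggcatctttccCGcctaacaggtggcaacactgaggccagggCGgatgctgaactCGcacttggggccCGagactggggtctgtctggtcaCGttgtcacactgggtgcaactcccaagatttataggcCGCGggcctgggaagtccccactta
Hoxd13, PFL alone, chr2:74666306-74666605: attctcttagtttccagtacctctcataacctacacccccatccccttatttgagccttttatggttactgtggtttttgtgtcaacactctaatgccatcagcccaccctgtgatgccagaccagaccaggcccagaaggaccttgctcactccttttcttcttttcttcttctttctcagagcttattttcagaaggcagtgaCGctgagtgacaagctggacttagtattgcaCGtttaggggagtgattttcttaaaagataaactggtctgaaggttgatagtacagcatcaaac
Jag1, PFL alone, chr2:137115808-137116107: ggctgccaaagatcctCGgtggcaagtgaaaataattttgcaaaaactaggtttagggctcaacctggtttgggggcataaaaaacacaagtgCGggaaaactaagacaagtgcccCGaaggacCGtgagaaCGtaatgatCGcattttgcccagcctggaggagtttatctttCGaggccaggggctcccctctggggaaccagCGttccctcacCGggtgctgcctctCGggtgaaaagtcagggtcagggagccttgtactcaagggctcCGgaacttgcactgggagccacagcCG
Msx2, PFL alone, chr13:53475019-53475318: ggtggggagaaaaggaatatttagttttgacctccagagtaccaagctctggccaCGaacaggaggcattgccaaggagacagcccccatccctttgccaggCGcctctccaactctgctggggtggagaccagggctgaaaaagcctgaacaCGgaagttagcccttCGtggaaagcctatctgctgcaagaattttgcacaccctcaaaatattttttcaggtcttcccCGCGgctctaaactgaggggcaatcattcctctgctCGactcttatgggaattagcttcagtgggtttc
Sall1, DFL, chr8:89044983-89045282: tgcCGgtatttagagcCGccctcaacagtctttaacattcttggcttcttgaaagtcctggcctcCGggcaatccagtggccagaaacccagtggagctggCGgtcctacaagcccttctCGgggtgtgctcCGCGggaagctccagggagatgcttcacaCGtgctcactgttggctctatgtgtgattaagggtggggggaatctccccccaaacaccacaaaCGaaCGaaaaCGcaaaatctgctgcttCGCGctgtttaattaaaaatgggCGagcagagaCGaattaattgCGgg
They hold 14, 2, 12, 7 and 16 CpG pairs in this order. The stretch at Hoxd13, 1684 bp upstream of the nearest start, is poor in CpG although it lies inside a Hox cluster. The strongest shared and PFL-alone regions near a start lay at the predicted genes Gm36079 and Gm10715 and are not printed.

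Most H3K27me3 of the distal forelimb was also found in the proximal forelimb, while the reverse held much less often. Of the DFL regions, 8261 (90.95%, 90.3 to 91.5%) overlapped a PFL region, and of the PFL regions 7771 (56.02%, 55.2 to 56.8%) overlapped a DFL region. DFL regions covered 7.11 Mb and PFL regions 11.1 Mb, so that DFL held 39.1% of the summed length. In bulk tissue, fewer cells with the mark and less mark per cell cannot be told apart. With both lists cut to the 9083 regions of highest −log10 q, 81.0% of DFL and 73.9% of PFL regions were shared, which left 1725 regions in DFL alone and 2372 in PFL alone.

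The regions outside the overlap were short and weak. DFL-alone regions had a median length of 339 bp and a median −log10 q of 3.31, against 683 bp and 6.79 for shared DFL regions. PFL-alone regions had medians of 356 bp and 4.15, against 966 bp and 11.8 for shared PFL regions. By rank, the share of DFL regions found in PFL went from 99.9% in the highest of 10 classes of equal size to 74.9% in the lowest, and the share of PFL regions found in DFL from 99.3% to 16.9%. The strong end of both lists was therefore common to both pieces.

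**Figure D1:**
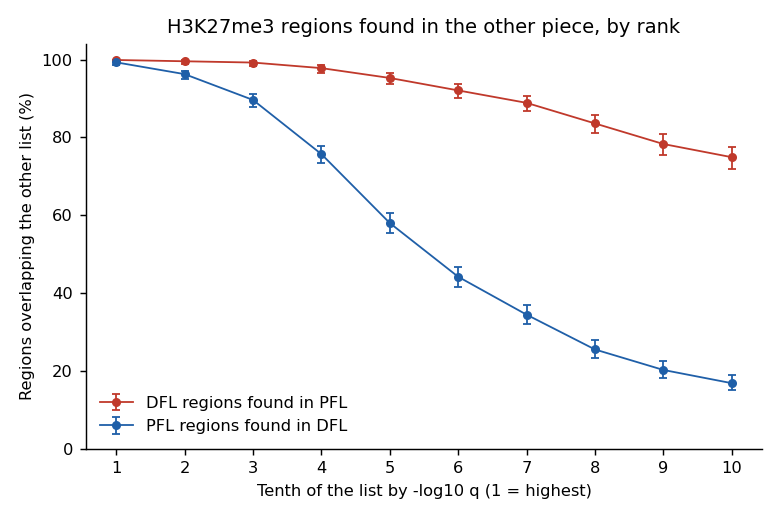
Percent of regions that overlap a region of the other piece (y axis) in 10 classes of equal size by −log10 q (x axis, 1 is the highest), for DFL (red) and PFL (blue), with 95% Wilson intervals. The DFL points stay between 74.9 and 99.9% and the PFL points go from 99.3 to 16.9%.

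Depth differed between the libraries and moves with these counts. The lowest background that can be solved from the peak values, a measure of depth, was 3.06 fragments in DFL and 4.75 in PFL. To see how much of the PFL list lies beyond the reach of the DFL library, the summit and local background of each PFL region were scaled to the DFL depth, and the Poisson −log10 p was compared with the weakest one in the DFL list (3.84). Of the 6102 PFL-alone regions, 1409 (23.1%) fell below it and 4693 (76.9%) did not. In the shared PFL regions 96.0% stayed above it. Of the same 6102 regions, 2261 (37.1%) lay within 3 kb of a DFL region, and 2891 were both farther than 3 kb from any DFL region and above the DFL limit. Of the 822 DFL-alone regions, 421 (51.2%) lay within 3 kb of a PFL region.

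Promoters held the mark far more often than the genome at large. Of the DFL regions 58.5% (57.4 to 59.5%) and of the PFL regions 49.6% (48.8 to 50.4%) lay within 2 kb of the start of a protein-coding transcript, a zone that makes up 3.85% of these chromosomes. In the lists of equal size the values were 58.5% and 56.9%. The regions of 1 piece alone sat farther out. Within 2 kb were 35.5% of DFL-alone and 35.3% of PFL-alone regions, against 60.7% of shared DFL and 60.8% of shared PFL regions. Between genes lay 33.2% of DFL-alone and 31.5% of PFL-alone regions, against 17.2% and 17.1% of the shared ones. The median distance to a coding start was 910 bp for shared DFL regions, 8057 bp for DFL-alone, 822 bp for shared PFL and 7311 bp for PFL-alone regions.

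In sequence, both lists were rich in CpG and G+C. The median region held 2.69 CpG per 100 bases in DFL and 2.46 in PFL, where the genome has 0.834, and a G+C content of 52.6% and 52.0%, where the genome has 41.8%. Shared regions had 2.80 (DFL) and 2.86 (PFL) CpG per 100 bases, DFL-alone regions 1.67 and PFL-alone regions 1.92. Soft-masked repeats made up a median of 7.93% of a DFL region and 7.83% of a PFL region, against 34.3% of the genome. Reads of low mapping quality, which are common in repeats, were removed from ChIP libraries before peaks were called. CTCF peaks of the same piece overlapped 13.96% of shared and 4.14% of alone DFL regions, and 16.5% of shared and 8.16% of alone PFL regions.

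By chromosome, the density was highest on chromosome 11, with 6.36 DFL and 9.18 PFL regions and 13.4 coding genes per Mb. It was lowest on the X chromosome, with 0.819 and 1.46 regions and 5.54 coding genes. Region and gene density did not rank alike throughout. Chromosome 7 had 13.9 coding genes per Mb with 4.73 and 6.78 regions, and chromosome 12 had 5.35 with 2.97 and 4.45. DFL held between 35.9% (X) and 41.9% (chromosome 17) of the regions of a chromosome, so no chromosome stood far from the overall division.

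Where both pieces had a region, its level was similar. The summit level, the pileup at the summit divided by the lowest background of its library, had a median of 14.4 in shared DFL regions and 15.2 in shared PFL regions. Over the 8261 shared regions the median log2 ratio of DFL to PFL level was −0.12 (−0.12 to −0.11, order-statistic interval), and 97.5% lay within 2-fold. With the deposited fold values in place of the level, the median was 0.01, so the direction is not fixed. The levels of both pieces had a Pearson r of 0.875 across regions, which share a genome and its mappability and are not independent. At least 2-fold higher in DFL were 74 regions, and at least 2-fold higher in PFL were 135.

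The regions with the largest level ratios near a start were looked up after their values were seen. On the DFL side stood Ror1, a Wnt5a receptor, at a level of 23.2 in DFL and 6.74 in PFL. Tgfbr3, a TGF-beta co-receptor, had 16.6 and 4.85, and Smoc2, a secreted calcium-binding protein of the matrix, 18.9 and 7.59. At Myc, a growth regulator, the levels were 8.81 and 3.37. On the PFL side, Bmp4, a ligand of limb outgrowth and cell death between the digits, was at 5.87 and 6.53 in DFL, in a pair of regions under a single PFL region at 17.3. Fgfr3, a receptor of growth cartilage, likewise had 6.53 and 9.46 in DFL under a PFL region at 22.1. Hey1, a Notch target, had 4.24 in DFL and 13.5 in PFL. Lmo2, a LIM-domain partner of blood and vessel factors, had 5.87 in DFL and 19.6 in PFL.

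**Figure D2:**
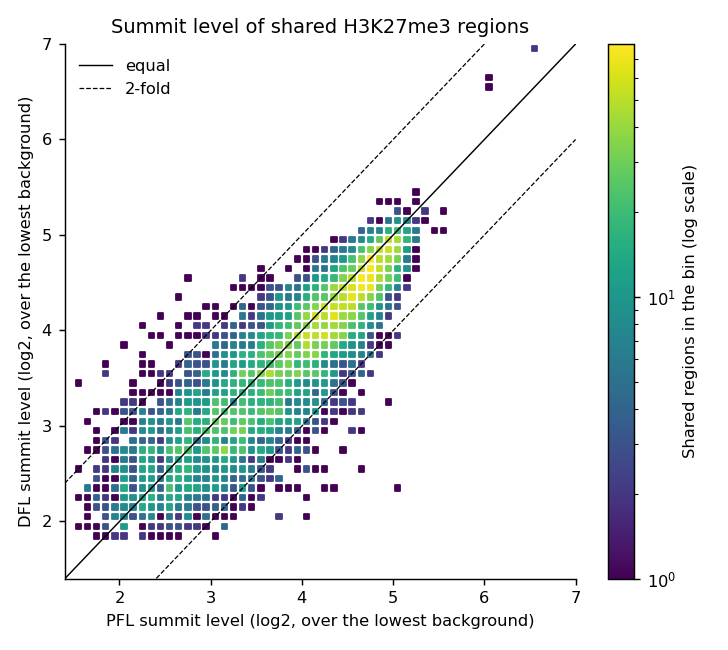
Summit level of the 8261 shared regions in PFL (x axis) and DFL (y axis), both as log2 of the multiple of the lowest background of the library, with the number of regions in each bin as colour on a log scale. The cloud follows the line of equal level, and 97.5% of regions lie between the dashed lines that mark a 2-fold difference.

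A coding gene was called marked when a region lay within 2 kb of any of its starts. By this rule 3613 of 21701 genes (16.6%) were marked in DFL and 4381 (20.2%) in PFL, with 3510 (16.2%) common to the pieces, 103 (0.475%) found in DFL alone and 871 (4.01%) found in PFL alone. In the lists of equal size, 318 (1.47%) were marked in DFL alone and 410 (1.89%) in PFL alone. These shares are the background for the gene lists below. CpG-rich promoters, of which there were 9705, were marked in 20.8% (DFL) and 24.8% (PFL) of cases, and the other promoters in 13.3% and 16.4%. The length covered by regions within 10 kb of a gene's 5′ end was also summed, and over all coding genes 40.9% of it was DFL.

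Genes of distal limb development were, of the 49 lists examined, the one with the widest gap in marked genes between the pieces. The lists and their members were chosen with earlier results of these data known, so this rank is a description. Of 20 distal limb genes, 4 were marked in both pieces, 12 in PFL alone and 0 in DFL alone, against 4.01% of all genes in PFL alone. DFL held 19.2% of the covered length around them, where it held 40.9% around all genes, and the median member had 0 bp in DFL and 1330 bp in PFL. In the lists of equal size 8 were in PFL alone and 1, Sall1, in DFL alone. Scaled to the DFL depth, 11 of the 12 PFL-alone promoters stayed above the DFL limit, all but Hoxd12. Of the PFL-alone promoters of all genes, 721 of 871 did so. The scaling leaves out sampling at the lower depth, and these promoters were selected through their PFL values. The strongest PFL regions at Tbx3 and Dlx6 came to a −log10 p of 4.56 and 5.17, where the limit is 3.84. More covered length in PFL was found at 18 of the 20 genes and more in DFL at 1, where all genes gave 4885 and 685. With lists of equal size these counts were 13 and 4, where all genes gave 3830 and 1150. The 12 genes are fewer loci than genes, since Evx2, Hoxd13 and Hoxd12 are neighbours, as are Dlx5 and Dlx6.

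Msx2, a homeobox gene of the distal mesenchyme and the tissue between digits, had 0 bp in DFL and 3729 bp in PFL within 10 kb. Its 7 PFL regions were all absent from the DFL list, with a summit level of 22.5 at the strongest. Its relative Msx1 had 371 bp in DFL and 3308 bp in PFL, with no region within 2 kb of its start in either piece. Tbx2, a T-box gene of the limb margins, had 1005 and 3189 bp, and Tbx3 0 and 461 bp. Dlx5, a homeobox gene of the apical ridge and of cartilage, had 0 and 1157 bp, and Dlx6 339 and 978 bp, although with lists of equal size Dlx6 kept its 339 bp in DFL and had 0 bp in PFL. Tfap2b, a transcription factor of the distal mesenchyme, had 0 and 1381 bp. The strongest PFL regions at all these genes stood on a high local background, from 10.6 times the lowest at Msx2 to 22.1 times at Dlx6. It was 15.4 times at Dlx5, 15.7 times at Tbx3, 16.9 times at Msx1 and 17.3 times at Tfap2b. A length of 0 bp in DFL means that no region was called, and is not a measurement of absent mark.

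Signalling genes of the digit area had these values. Jag1, a Notch ligand, had 0 bp in DFL and a single PFL region of 1227 bp at chr2:137114926-137116152, its edge 492 bp from the nearest start, with a −log10 q of 19.8. Its surroundings stood at 2.07 times the lowest background and its summit at 11.6 times, and no other region of either piece lay within 10 kb of the 5′ end. Bmp2, a ligand of digit formation, had 0 bp in DFL and 1278 bp in PFL, and Cyp26b1, the enzyme that degrades retinoic acid in the distal bud, 0 and 849 bp. Hand2, a regulator of the posterior limb margin, had 0 and 610 bp. In all 12 of the PFL-alone promoters an H3K27ac region lay within 2 kb in both pieces, as it did in 652 of the 871 PFL-alone promoters of all genes.

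There were 4 distal genes marked in both pieces. Lhx2 and Lhx9, LIM-homeobox genes of distal outgrowth, had 1212 and 655 bp in DFL and 3323 and 1958 bp in PFL. Sall3, a zinc-finger gene of the autopod, had 1832 and 2009 bp. At Lhx2 and Sall3 the order turned round with lists of equal size, to 1212 and 1028 bp at Lhx2 and 1832 and 1750 bp at Sall3. Sall1, its relative, had more in DFL in the lists as deposited too, with 2168 bp in DFL and 754 bp in PFL. Its summit level was 23.5 in DFL and 15.0 in PFL, and in the lists of equal size the PFL length dropped to 0 bp. Hoxa13 had 0 and 567 bp, and Bmp7 had no region within 10 kb in either piece.

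Genes of proximal limb development were also examined. Of 20 such genes, 8 were marked in both pieces, 3 in PFL alone (Meis1, Alx4 and Pax1) and 0 in DFL alone. DFL held 40.8% of the covered length around them, against 40.9% around all genes. In the lists of equal size 2 were in DFL alone and 1 in PFL alone. More covered length was found in PFL at 14 of the 20 genes and in DFL at 4, and with lists of equal size in PFL at 7 and in DFL at 9. Meis1 and Meis2, homeobox genes of the upper arm, had 2320 and 1160 bp in DFL and 3141 and 3716 bp in PFL, and with lists of equal size the PFL length of Meis1 dropped to 1376 bp, under its DFL length. More DFL than PFL length was found at Tbx18, a T-box gene (1715 and 1181 bp), Alx4 (1825 and 1473 bp) and Hoxd9 (1240 and 826 bp). Irx3 and Irx5, Iroquois genes of the proximal and anterior bud, had 1744 and 1735 bp in DFL and 3212 and 3997 bp in PFL. Shox2, a homeobox gene of the upper arm, had a higher level in DFL (25.1) than in PFL (16.0), with lengths of 1676 and 2193 bp.

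**Figure D3:**
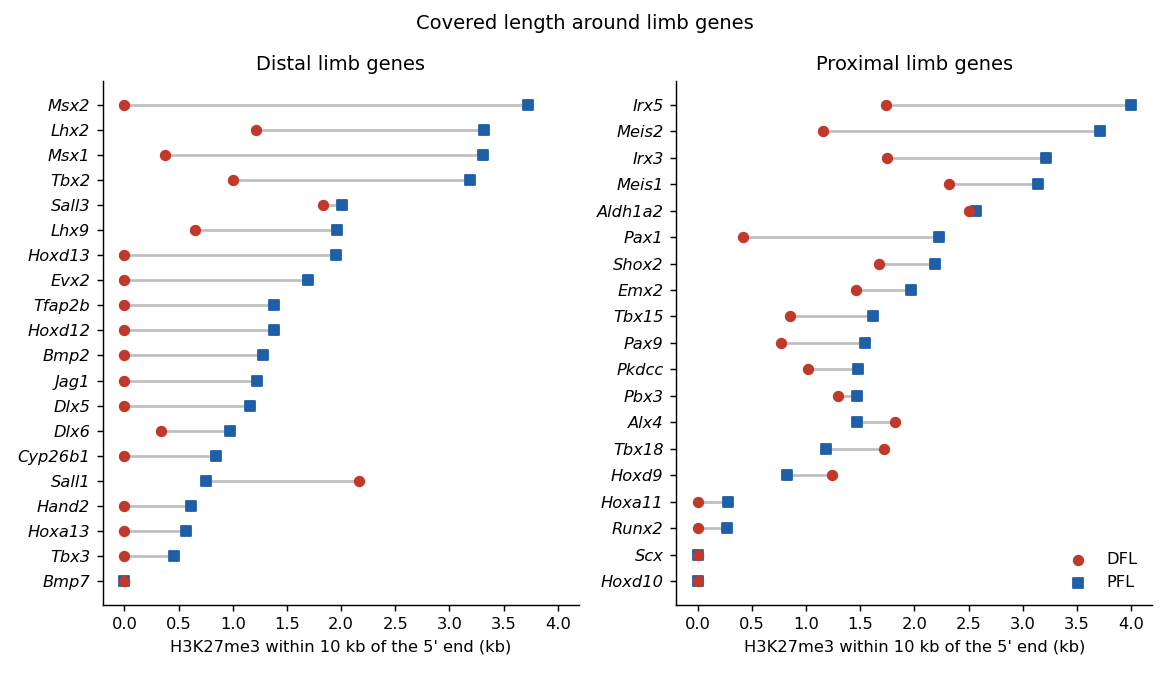
Length in kb covered by H3K27me3 regions within 10 kb of the 5′ end (x axis) of 20 distal (left) and 19 of the proximal limb genes (right), in DFL (red circles) and PFL (blue squares), 1 library each. At 18 distal genes PFL lies above DFL, with Sall1 on the other side and Bmp7 at 0 in both, and of the proximal genes drawn 14 have more in PFL and 3 more in DFL.

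Of the genes that tell forelimb from hindlimb, Tbx5, which is active in forelimb, had no H3K27me3 region within 10 kb in either piece. The hindlimb genes Pitx1 and Tbx4 had 1721 and 919 bp in DFL and 3151 and 2467 bp in PFL. Isl1, which acts early in the hindlimb field, had 599 and 1604 bp. Tbx4 was the gene of these 4 with a marked promoter, in both pieces.

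At the HoxD cluster (chr2:74650991-74767142 with Evx2 and margins) the mark was divided along the cluster. Evx2, Hoxd13 and Hoxd12, at the end that is active in digits, were marked in PFL alone, with 1.69, 1.96 and 1.38 kb in PFL and 0 kb in DFL. The windows of neighbouring genes overlap, so the same regions count for more than 1 gene. With lists of equal size the PFL lengths of these genes were 1.195, 0.937 and 0.359 kb. Hoxd11 had 0.754 kb in PFL and none in DFL, and Hoxd10 had none in either. Towards the other end Hoxd9 had 1.24 kb in DFL and 0.826 kb in PFL, and Hoxd8 had 2.14 and 2.01 kb. The level at Hoxd8 was 24.5 in DFL and 14.7 in PFL. Hoxd3 and Hoxd4, whose annotated 5′ ends nearly coincide, had 2.76 and 2.71 kb, and Hoxd1 had 2.60 and 3.37 kb. The cluster held 13 DFL regions, 10 of them shared, and 22 PFL regions, 9 of them shared.

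The regions called inside Hox clusters rose only modestly above their surroundings. In HoxD the deposited fold went from 1.68 to 2.44 in DFL and from 1.52 to 2.68 in PFL, while the local background stood at a median of 12.1 times (DFL) and 13.0 times (PFL) the lowest background. Since the peak caller compares each place with what lies around it, a gap between regions where the surroundings are high is not a measurement of absent mark.

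In the HoxA cluster with Evx1, Hoxa2 was marked in both pieces, with 1.45 kb in DFL and 1.54 kb in PFL and levels of 25.5 and 27.4. Hoxa6 and Hoxa7 were marked in PFL alone, at lower levels of 15.8 and 12.4. Hoxa3, Hoxa4, Hoxa5, Hoxa11 and Hoxa13 had between 0.236 and 0.925 kb in PFL and none in DFL, and Hoxa9 and Hoxa10 had none in either piece. Between Hoxa13 and Evx1 a PFL region of 2682 bp at chr6:52289988-52292669 had a −log10 q of 20.7 and no DFL counterpart. Evx1 itself had 1.75 kb in DFL and 2.01 kb in PFL, none of it within 2 kb of its start. All 5 DFL regions of the cluster were shared, and 5 of its 17 PFL regions.

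In HoxB and HoxC the regions lay on a high local background in both pieces. In HoxB it had a median of 16.7 times (DFL) and 20.1 times (PFL) the lowest background, and regions covered 7.78 kb in DFL and 11.2 kb in PFL of the 178 kb examined. The HoxB regions had a median level of 29.7 in DFL and 30.1 in PFL. Hoxb1 had the most covered length of all Hox genes, 3.92 kb in DFL and 4.52 kb in PFL. Hoxb2, Hoxb3, Hoxb4, Hoxb7 and Hoxb9 were also marked in both pieces, Hoxb6 and Hoxb8 in PFL alone, Hoxb13 in DFL alone, and Hoxb5 in neither. Lengths at Hoxb7, Hoxb8 and Hoxb9 were 0.946, 0.946 and 1.17 kb in DFL and 2.12, 2.12 and 2.05 kb in PFL, in windows that overlap. In HoxC the local background was the highest of the 4 clusters, 18.4 times in DFL and 20.7 times in PFL, and the folds did not exceed 1.97 and 1.68. Hoxc11 was marked in both, Hoxc10 in DFL alone, and Hoxc5, Hoxc6 and Hoxc8 in PFL alone, while Hoxc4, Hoxc9, Hoxc12 and Hoxc13 were marked in neither piece. The 5 DFL and 11 PFL regions of HoxC had 1 overlap between them, although their median levels, 32.0 and 31.4, were alike.

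**Figure D4:**
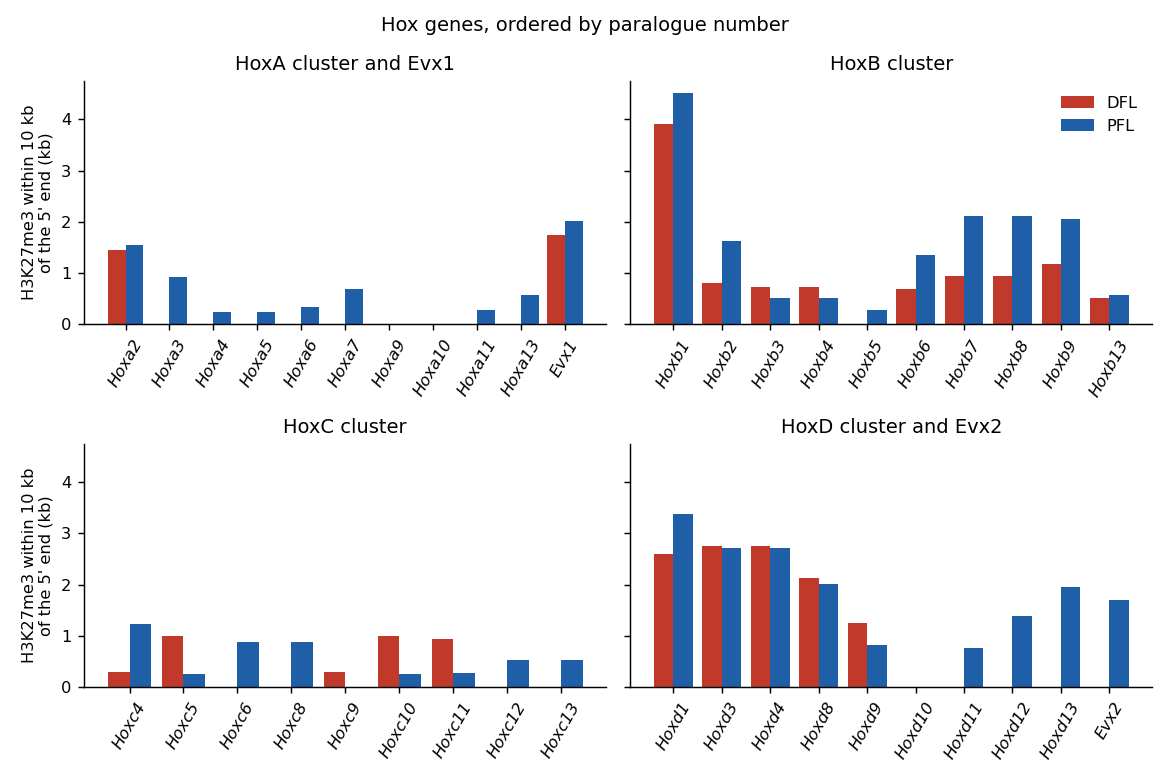
Length in kb covered by H3K27me3 regions within 10 kb of the 5′ end of the Hox genes (y axis), for the 4 clusters with Evx1 and Evx2, ordered by paralogue number, in DFL (red) and PFL (blue), 1 library each. In HoxD the DFL bars end at Hoxd9 and the PFL bars resume from Hoxd11 to Evx2.

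Families of transcription factors that pattern neural, sensory and mesodermal tissue were marked more often than coding genes as a whole in both pieces. Of 44 Fox genes 20 were marked in both, 1 in DFL alone (Foxc1) and 2 in PFL alone (Foxo3 and Foxd2). Of 14 Nkx genes 9 were in both and Nkx2-6 in PFL alone, and of 15 Pou genes 8 were in both, Pou3f3 in DFL alone and Pou3f2 in PFL alone. Of 6 Irx genes 4 were in both and Irx2 in PFL alone. Of 17 Tbx genes 7 were in both and Tbx3 in PFL alone, with Eomes the most covered at 5296 bp in DFL and 6286 bp in PFL. Of 19 Sox genes 10 were in both, and Sox5 and Sox17 in PFL alone. The DFL percent of covered length ran from 36.0% to 41.2% in these families, against 40.9% for all genes. With lists of equal size, PFL alone held 1 Fox, 1 Nkx, 0 Pou, 0 Irx, 0 Tbx and 1 Sox gene. DFL alone then held 3 Fox, 2 Nkx, 1 Pou, 2 Irx, 0 Tbx and 1 Sox gene.

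The DFL percent of covered length was lower in some other families. Of 9 Pax genes 2 were marked in both and 4 in PFL alone (Pax1, Pax4, Pax6 and Pax7), with 24.9% of the covered length in DFL. With lists of equal size, 7 Pax genes had more length in PFL and Pax9 had more in DFL (764 and 369 bp). Pax5, the B cell regulator, had 1176 bp in DFL and 3877 bp in PFL. Of 9 Dlx and Msx genes 4 were in both and 3 in PFL alone (Msx2, Dlx5 and Dlx6, which are also in the distal list), with 30.9% in DFL, and at Dlx1 and Dlx6 the order turned round with lists of equal size. Of 12 Lhx, Isl and Lmx genes 7 were in both and Lhx1 and Lhx8 in PFL alone, with 32.0% in DFL, and Lhx2, Lhx4 and Lmx1b turned round in the same way. Of 20 neural basic helix-loop-helix genes, 11 were in both and 4 in PFL alone (Atoh1, Neurod2, Neurog1 and Ptf1a), with 35.6% in DFL. Within lists of 9 to 20 genes these counts have wide intervals, for example 35.4 to 87.9% for the 66.7% of Pax genes marked in PFL. With lists of equal size, PFL alone held 2 Pax genes and 2 Dlx and Msx genes. It also held 1 Lhx, Isl and Lmx gene and 3 neural basic helix-loop-helix genes. DFL alone then held 0, 0, 1 and 1 genes of these families, in the same order.

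Of 6 Gata genes 1 was marked in both and Gata3 and Gata4 in PFL alone, and of 10 Eya and sine oculis homeobox genes 3 were in both and 2 in PFL alone, Six6 among them. Of 11 Zic and Gli genes 3 were in both and Gli1, Zic1 and Zic2 in PFL alone. Of 5 Tfap2 genes 3 were in both, Tfap2d in DFL alone and Tfap2b in PFL alone, and of 7 Meis and Pbx genes 3 were in both and Meis1 in PFL alone. Of 16 mesodermal basic helix-loop-helix genes 8 were in both and Hand1, Hand2 and Twist1 in PFL alone. Cutting to lists of equal size left 1 Gata, 1 Eya and sine oculis, 1 Zic and Gli and 1 Tfap2 gene marked only in PFL. It also left 2 mesodermal basic helix-loop-helix genes and 0 Meis and Pbx genes there. Marked only in DFL were then 2 Tfap2 genes and 0 genes of the other families.

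Signalling families were dense in marked ligands. Of 19 Wnt ligands 15 were marked in both pieces and Wnt5b and Wnt8a in PFL alone, and Wnt10a had 4395 bp in DFL and 6472 bp in PFL. Of 22 Fgf ligands 16 were in both and Fgf10, the mesenchymal ligand of limb outgrowth, in PFL alone. The PFL region at Fgf10 was weak, with a −log10 q of 4.12, and lay at another of its starts. Within 10 kb of its 5′ end both pieces had 0 bp. Fgf8, the ligand of the apical ridge, had 1873 bp in DFL and 3337 bp in PFL. Of 20 Bmp and Gdf ligands 7 were in both and Bmp2, Gdf1, Gdf10 and Gdf15 in PFL alone, and of 16 Bmp antagonists 9 were in both and Bambi in PFL alone. Of 15 genes of the hedgehog pathway 3 were in both and 3 in PFL alone, Shh and Gli1 among them, with 33.5% of covered length in DFL. Shh is the ligand of the posterior limb margin, and Gli1 is its target gene. Of 30 Wnt receptors and antagonists 15 were in both and Dkk3, Fzd4, Fzd10, Rspo3 and Sfrp2 in PFL alone. Of 18 retinoic acid genes 7 were in both and Cyp26b1 in PFL alone. Cutting to lists of equal size left 1 Wnt ligand, 2 Wnt receptors and antagonists and 0 Fgf ligands marked only in PFL. It also left 3 Bmp and Gdf ligands, 1 Bmp antagonist, 1 hedgehog gene and 1 retinoic acid gene there. Marked only in DFL were then 1 Bmp antagonist and 0 genes of the other families.

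Families of neural function gave the following counts. Of 50 GABA, glutamate and glycine receptor genes 37 were marked in both pieces and 0 in a single piece. Of 34 voltage-gated potassium channel genes 26 were in both, and Kcnd2, Kcng4 and Kcnh6 in PFL alone. The Eph and ephrin genes had 9 of 22 in both and Efna1 and Ephb4 in PFL alone, and the semaphorins and plexins 12 of 29 in both and Plxna1, Sema3c and Sema4a in PFL alone. Of 16 brain regional factors 5 were in both, En2 in DFL alone, and Hesx1, Neurod2, Otx1 and Pax6 in PFL alone. Cutting to lists of equal size left 1 potassium channel gene and 1 Eph or ephrin gene marked only in PFL. It left 0 genes of the other families there. Marked only in DFL were then 2 brain regional factors, 1 GABA, glutamate or glycine receptor gene and 0 genes of the other families.

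Olfactory and vomeronasal receptors had few marked genes. Of 1132 olfactory receptor genes 2 were marked in both pieces and Olfr222 and Olfr463 in PFL alone, and of 325 vomeronasal receptor genes 0 were marked. Of 365 Zfp genes 16 were in both, Zfp641 in DFL alone and Zfp503, Zfp799, Zfp819 and Zfp872 in PFL alone, and of 55 clustered protocadherins 4 were in both, Pcdhga9 in DFL alone and Pcdha12 and Pcdhga11 in PFL alone. Keratins had 5 of 53 in both and Krt71 in PFL alone. Of 80 ribosomal protein genes Rpl26 alone was marked, in PFL, and of 87 proteasome and translation genes 5 were in both and Eif5a2 in DFL alone. Of 17 cyclin and Cdk inhibitor genes 4 were in both and Ccnd1, Cdkn1c and Cdkn2a in PFL alone. Cutting to lists of equal size left 3 cyclin and Cdk inhibitor genes and 1 Zfp gene marked only in PFL. It left 0 genes of the other families there. Marked only in DFL were then 2 Zfp genes, 2 clustered protocadherins, 1 proteasome and translation gene and 0 genes of the other families.

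Markers of the cell types that a limb piece can hold were as follows. Of 16 surface ectoderm markers 12 were marked in both pieces and 0 in a single piece, and of 14 nerve and glia markers 8 were in both and 0 in a single piece. Of 18 muscle markers 4 were in both and 4 in PFL alone, Lbx1, Mef2c and Pax7 among them. Of 14 cartilage and joint markers 8 were in both and Sox5 in PFL alone. Of 14 endothelium markers 6 were in both and Erg and Sox17 in PFL alone, and of 12 blood markers 2 were in both and 1 in PFL alone. The DFL percent of covered length was between 39.2% and 43.9% in 5 of these lists, and 21.3% in the blood markers, where few genes had any region. With lists of equal size, PFL alone held 1 muscle, 2 endothelium, 0 cartilage and joint and 0 blood markers. DFL alone then held 1 cartilage and joint marker. The part of cell composition in the differences between the pieces was not tested.

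**Figure D5:**
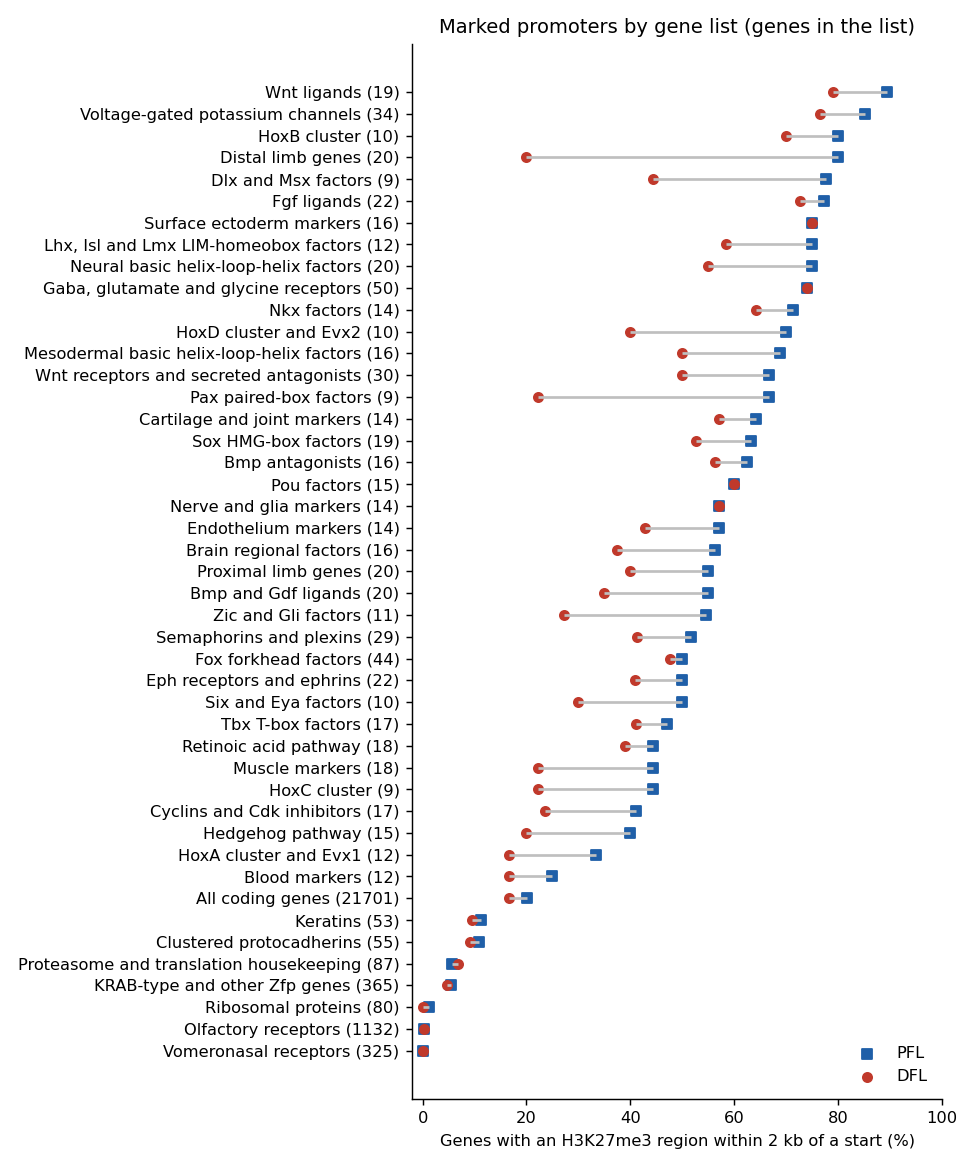
Percent of genes with an H3K27me3 region within 2 kb of a start (x axis) in DFL (red circles) and PFL (blue squares) for each gene list of at least 9 genes, with the number of genes in brackets. The list of distal limb genes has the widest gap, 4 of 20 genes in DFL and 16 of 20 in PFL, and all coding genes stand at 16.6% and 20.2%. The lists were chosen with earlier results of these data known.

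Single genes with the largest excess of covered length within 10 kb of the 5′ end were taken in each direction, counting genes whose direction was the same in the lists of equal size. Over all genes, 685 had more in DFL and 4885 more in PFL. The values that follow chose these genes and are a description.

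On the DFL side Sall1 (described above) was followed by Mab21l1, a gene of eye and craniofacial development, with 1909 bp in DFL and 537 bp in PFL and levels of 24.1 and 10.1. Bin2, a membrane-shaping protein of blood cells, had 1166 bp and 0 bp, at a level of 4.90. Runx1t1, a transcriptional corepressor, had 2696 and 1621 bp, and Tox3, an HMG-box gene, 1326 and 500 bp with levels of 16.6 and 6.32. Dact1, a Dishevelled-binding modulator of Wnt signalling, had 922 and 0 bp, and Zfp641 875 and 0 bp. Pla2g4e, a phospholipase, had 1284 and 229 bp, Ptgfr, the prostaglandin F receptor, 1133 and 300 bp, and Ddt, a tautomerase, 1074 and 0 bp with its region beyond 2 kb. Foxl1, a forkhead gene of gut mesenchyme, had 3423 and 2615 bp. Sim2, a bHLH-PAS factor, had 2161 and 1307 bp, and with a −log10 q of at least 5 in both lists its order turned round. The excess ran from 1414 bp at Sall1 to 808 bp at Foxl1.

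On the PFL side the excess was larger, from 3729 bp at Msx2 to 2593 bp at B3gnt3, a glycosyltransferase. Neurog1, a proneural factor, had 1354 bp in DFL and 4373 bp in PFL. Foxl2, a factor of ovary and eyelid, had 2664 and 5846 bp. Gja3, a gap junction protein of the lens, had 0 bp in DFL and a single PFL region of 3099 bp at chr14:57056415-57059513, at a level of 18.5 and with a −log10 q of 16.8. Dll4, a Notch ligand of vessels, had 1902 and 4572 bp. Smpd5, a sphingomyelinase, had 260 and 3243 bp, Gfy, an olfactory signalling gene, 483 and 3175 bp, and Tspoap1 417 and 3036 bp. At 10 of these 12 genes, all but Msx2 and Gja3, DFL also had a region in the window. Cutting to lists of equal size left Msx2 with 0 and 776 bp and Msx1 with 371 and 619 bp, whereas Gja3 kept 0 and 3099 bp.

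H3K27ac, the mark of active promoters on the same residue, was compared at the same genes. A DFL H3K27ac region lay within 2 kb of 52.2% of the promoters marked by H3K27me3 in both pieces, 82.5% of those in DFL alone and 76.2% of those in PFL alone, against 59.6% of the unmarked ones. For PFL H3K27ac the values were 59.8%, 84.5%, 79.0% and 61.0%. An exchange of calls was looked up after the values were seen, defined as H3K27me3 in 1 piece alone with H3K27ac in the other alone. It was found at 4 genes marked in DFL (4930412O13Rik, Il15, Mapk10 and Pcdhga9) and at 12 marked in PFL. Among the 12 were Hand1, a basic helix-loop-helix factor, Irx2, Mcub, a subunit of the mitochondrial calcium channel, and Lancl3. Mcub had 0 bp in DFL and 912 bp in PFL with a −log10 q of 18.5, and Lancl3 0 and 969 bp with 10.1. Other calls were weaker or had H3K27me3 of the other piece within 10 kb. Irx2 had a −log10 q of 1.34, with 1970 bp in DFL and 2839 bp in PFL, and Hand1 had 330 and 1248 bp. On the DFL side, 4930412O13Rik had 1519 and 1458 bp with a −log10 q of 2.13, and Pcdhga9 1304 and 841 bp with 1.96. The others were Eps8l2, Fam92b, Gpx3, Hip1r, Il13, Ltb4r1, Them7 and Tmprss13. The opposite combination, both marks in the same piece alone, was more frequent at the PFL-alone promoters, with H3K27ac in PFL alone at 36 of 871 (4.13%) against the 12 (1.38%) of the exchange. At the 103 DFL-alone promoters H3K27ac was in DFL alone at 2 (1.94%) and in PFL alone at 4 (3.88%). Over the promoters without H3K27me3, 0.761% had H3K27ac in DFL alone and 2.13% in PFL alone. Over those with H3K27me3 in both pieces the values were 3.05% and 10.6%. H3K27ac in PFL alone was thus the more frequent in each of these classes, and the order at the PFL-alone promoters is not particular to them.

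Regions joined over gaps of up to 3 kb gave 6178 domains in DFL and 8880 in PFL, with medians of 1227 and 1316 bp. The widest DFL domain was 7.07 kb at Egr2, a gene of hindbrain and nerve sheath, and the next were at Pdgfa, Shisa8, Elfn1 and near Zfp322a. In PFL the widest was 14.7 kb at Hmx1, a homeobox gene of sensory organs, followed by Isl2, Slc32a1, the vesicular GABA transporter, Gsx1, and the vicinity of Runx3. These widths include the joined gaps. In the Hmx1 domain regions covered 1.67 kb in DFL and 3.39 kb in PFL, and in the Egr2 domain 3.8 and 4.48 kb. At least 5 kb were 38 DFL and 126 PFL domains, and all 38 and 125 of these overlapped a domain of the other piece.

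MicroRNA genes were among the covered loci. Of 1005 hairpins placed on these chromosomes in RefSeq, 20 lay under a DFL region and 32 under a PFL region. These regions cover 0.278% (DFL) and 0.432% (PFL) of the genome. Under both were 17 hairpins, under PFL regions alone 15, and under DFL regions alone 3 (Mir6347, Mir6405 and Mir7088). At Mir6405 and Mir7088 PFL also had 654 and 1851 bp within 2 kb, where DFL had 328 and 2018 bp. Some hairpins share a locus, such as Mir290a, Mir290b, Mir291b, Mir292 and Mir292b, so there are fewer loci than hairpins. The mature forms of a few, chosen after the regions were seen, read as follows with the seed (bases 2 to 8) in capitals.
mmu-miR-9-5p, of Mir9-1 and Mir9-2: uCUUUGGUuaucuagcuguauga
mmu-miR-137-3p: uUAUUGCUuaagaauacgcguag
mmu-miR-219a-5p: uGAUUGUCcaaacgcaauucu
mmu-miR-193a-3p: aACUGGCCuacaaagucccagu
mmu-miR-290a-3p: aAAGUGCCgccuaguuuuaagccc
Mir9-2, Mir219a-2, Mir193a, Mir290a and Mir375 lay under regions of both pieces. Mir9-1 and Mir137 lay under PFL regions alone, although DFL had 379 and 1702 bp within 2 kb of them, where PFL had 1956 and 2203 bp. The same mature miR-9 is thus encoded by a hairpin covered in both pieces and by one covered in PFL alone.

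The very strongest regions of both lists were of a different kind. The 5 highest in DFL were nearest to Gm10800, Gm10801, Fcgr3, Filip1l and Rpusd4, and the 5 highest in PFL to Rpusd4, Filip1l, Ly6c2, Gm8797 and Txndc11. Of these 10 regions 8 overlapped a region in all 8 lists of the series, which include active marks, CTCF and HOX13. In total 35 DFL and 46 PFL regions did so. The highest DFL-alone regions had Fam161a, Banf2, Arhgap8, Enho and Ezh2 as nearest coding genes, with a −log10 q of 12.4 to 15.4. For the highest PFL-alone regions, at 25.5 to 31.9, the nearest were Tmem267, Mc2r, Ddx18, Abt1 and Ust. Of these 10, those at Arhgap8 and Enho lay within 2 kb of a coding start. The others lay from 6094 bp (Tmem267) to 789182 bp (Ddx18) away, with 57844 bp at Ezh2, so these names are positions only.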

How the data were processed

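H3K27me3 ChIP-seq peaks of DFL and PFL (1 library each) were used as deposited. Per the labels, the submitters' processing notes name cutadapt, Bowtie, SAMtools, MACS2 and mm10 for these libraries. For single-read ChIP, which includes these, the study's methods give removal of alignments of low mapping quality and MACS2 with summits called, 1 read kept per position, a q-value limit and no control, in a command written out for another library. Without a control, the local background comes from the ChIP library itself. The authors deposited, for each peak summit, its position, a fold (ratio of summit pileup to local background), and −log10 of the p-value and q-value. The weakest −log10 q was 1.30 in both lists. From fold and p the whole-number pileup and the background were solved (largest difference in −log10 p 0.00031), tested on simulated data. The 14488 DFL and 24446 PFL lines were collapsed to regions. Genes are the 21701 protein-coding genes of unique symbol in GENCODE vM21 basic; 54 others were left out.

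The H3K27ac, CTCF and HOX13 lists served for overlaps only. Named genes were the Hox genes, the 12 genes of largest excess in each direction (same direction with lists of equal size, 1 gene per locus), members of the gene lists marked in 1 piece alone, members with most covered length, the 5 strongest regions of each class, and the 5 widest domains. Other members of the limb lists, Fgf8, the genes of largest level ratio, the microRNAs and the exchange promoters were named after their values were seen. Values of a few single genes are not reported here. Regions, members and the 49 gene lists were chosen with earlier results of these data known. Alternatives were another q or fold minimum, lists of equal size, stitching, a 50% overlap, other promoter windows, and removal of regions common to all lists; scaling to the DFL depth was added after seeing the data. No test between the pieces was possible with 1 library each. Python 3.11.15, pandas 2.3.3, numpy 2.4.6, SciPy 1.17.1 and matplotlib 3.10.9 were used.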

Additional observations from a re-analysis of the deposited data

Results flagged for a closer look

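Regions outside chromosomes 1 to 19 and X were not part of the comparison. The DFL list held 6 regions on chromosome Y, 2 on the mitochondrial genome and 16 on unplaced or unlocalised sequence, and the PFL list 6, 10 and 29. Mitochondrial DNA carries no histones. The source of these regions was not tested.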

How the results depend on the processing

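With a −log10 q of at least 5 in both lists, 92.0% of DFL and 56.9% of PFL regions were shared, DFL held 37.8% of the covered length, 66.1% and 57.5% lay within 2 kb of a start, and the median log2 level ratio was −0.085. With lists of equal size these values were 81.0%, 73.9% and 43.6%, with 56.9% of PFL regions within 2 kb, a ratio of −0.15, and 318 promoters in DFL alone and 410 in PFL alone. A fold of at least 3 gave 78.6% and 60.8% shared, 42.0% of the length, 61.5% and 54.7% within 2 kb, and 355 promoters in DFL alone. Stitching gave 91.6% and 63.4% shared and an overlap of 50% gave 87.9% and 53.5%. Within 1 kb lay 49.4% and 40.5%, and within 5 kb 66.6% and 58.4%. PFL regions above the DFL limit after scaling to the DFL depth gave 88.3% and 61.4% shared, 40.5% of the length and 52.0% within 2 kb. The deposited fold turned the level ratio to 0.012. Of the 24 genes named for their excess, 1 turned round (Sim2, −750 bp with a −log10 q of at least 5) and 7 moved by more than 50% of their value under that minimum, 7 with lists of equal size and 16 with the fold minimum of 3. Direction with lists of equal size is fixed by the rule that chose these genes. The cause of these changes was not tested.

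No paired analysis was possible because each mark and piece has 1 library. Of the 6102 PFL-alone regions, 1409 (23.1%) fell below the DFL limit at the DFL depth. Where the local background is high, a narrow peak measures relief above it and not the mark itself.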
